A study of Mus musculus with 8 samples.

Results

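The cortex of mice that lack both SHARP1 and SHARP2 (S1/2-/-) was compared with the cortex of wild-type (WT) mice over both times of day together, on 8 Affymetrix arrays with 1 mouse per array. All 8 arrays of the series entered the comparison, 4 from S1/2-/- and 4 from WT mice, and each genotype had 2 mice harvested at ZT4 and 2 at ZT16, where ZT counts the hours after lights on in a cycle of 12 h light and 12 h dark. The labels give the strain as C57/bl6, an age of 4 months and cortex from a coronal slab between bregma 0 and -2 mm. According to the methods the mice were adult males, WT and double mutants came from crosses of double heterozygotes, and the parental single mutants had been backcrossed to C57Bl/6J separately, so both mutations are carried in the germline. No group was treated. The question addressed was which genes differed between the genotypes at both times in the same direction.

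SHARP1 (gene symbol Bhlhe41, also DEC2) and SHARP2 (Bhlhe40, also DEC1) are basic helix-loop-helix proteins that bind E-boxes, short DNA elements such as CACGTG, and repress transcription. In the circadian clock they oppose the activators CLOCK and BMAL1, and they are also induced by neuronal activity, low oxygen and other stimuli. The cortex holds neurons together with oligodendrocytes, which wrap axons in myelin, and astrocytes, which clear transmitters, supply metabolites and respond to disturbance by making more of the filament protein GFAP. In bulk tissue, more RNA per cell and more cells of a type cannot be told apart.

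Of 12422 probe sets, each a group of probes for a transcript, the 7453 with the brighter signals were tested with limma, with time as a covariate. Probe sets that differed more than 1.5-fold with an adjusted p below 0.05 were called. Called higher in S1/2-/- cortex were 9 probe sets (0.121% of those tested) and called lower was 1 (0.0134%), which makes 10 in all (0.134%). The 7 called genes with higher signals were Cldn11, Mal and Mog, which belong to myelin, Gfap and Ntsr2, which are found in astrocytes, Aldh1a1, an enzyme of retinoic acid synthesis, and Bcan, a proteoglycan of the brain matrix. The single called gene with lower signals was Hspa1a, an inducible heat shock protein. In each of the 10 called probe sets, both S1/2-/- mice lay on the same side of both WT mice at ZT4 and again at ZT16. This arrangement, called separation at both times here, was seen in 419 probe sets with higher signals (5.62%) and 481 with lower signals (6.45%) in S1/2-/- mice. It says nothing about size: 91 of the higher and 30 of the lower ones differed more than 1.5-fold. At an unadjusted p under 0.05 the additive fit gave 458 higher (6.15%) and 428 lower (5.74%) probe sets. The number of arrays limits the precision. Median signals were 186 to 206 per array, and log2 signals of mice of the same group correlated at 0.955 to 0.965.

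**Figure D1:**
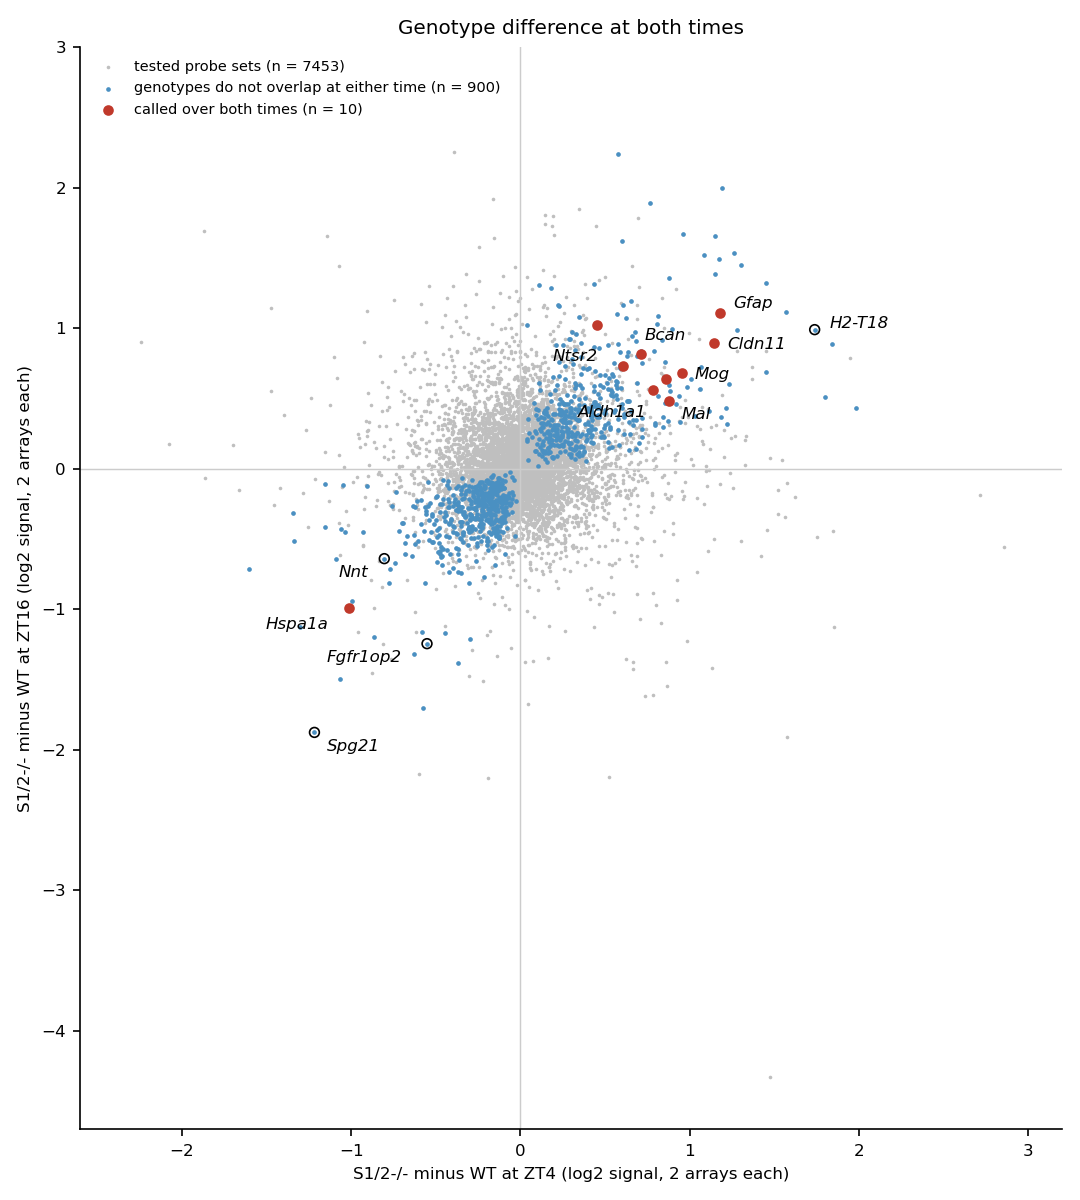
Difference between S1/2-/- and WT cortex in log2 signal at ZT4 (horizontal axis) and at ZT16 (vertical axis), each from 2 mice per genotype, for 7453 tested probe sets. Blue points are the 900 probe sets in which the genotypes did not overlap at either time and red points are the 10 called ones. Called genes lie at upper right except Hspa1a at lower left, open circles mark other genes described in the text, and the single point near the bottom is Ttr, 1.47 at ZT4 and -4.33 at ZT16.

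Myelin genes were the largest group among the called genes. Oligodendrocytes make myelin from lipids and a small set of abundant proteins, and CLDN11 forms the tight junctions between its layers. Cldn11 gave signals of 814 and 963 in WT against 1916 and 2004 in S1/2-/- mice at ZT4, and of 1193 and 1313 against 2162 and 2505 at ZT16. Every S1/2-/- mouse was above every WT mouse, and the signal rose 2.03-fold over both times (log2 difference 1.02, SE 0.10, adjusted p = 0.0029 from limma). MAL is a proteolipid of compact myelin, and its gene gave 1106 and 1232 in WT against 2161 and 2129 in S1/2-/- mice at ZT4, and 1315 and 1314 against 1863 and 1813 at ZT16. Mal rose 1.603-fold (log2 difference 0.68, SE 0.10, adjusted p = 0.027), and its difference was 0.88 at ZT4 and 0.48 at ZT16 (unadjusted p of the interaction with time = 0.0289, which did not pass after adjustment). Mog, which encodes a glycoprotein on the outermost myelin layer, gave 419 and 517 in WT against 925 and 878 in S1/2-/- mice at ZT4, and 559 and 680 against 871 and 1121 at ZT16. It rose 1.76-fold (log2 difference 0.82, SE 0.13, adjusted p = 0.043), again with no overlap of the genotypes.

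At an unadjusted p under 0.05, 9 of the 18 tested genes of the oligodendrocyte and myelin list were higher and 0 lower, against the background shares of 6.15% and 5.74%. Separated at both times were 8 higher and 0 lower ones (background 5.62% and 6.45%). The median log2 difference of the list was 0.35, beside 0.00 over all tested probe sets, and it was 0.58 at ZT4 and 0.12 at ZT16. Leaving out WT ZT4 replicate 1 lowered it to 0.23. Members that were separated without being called were Mag, an adhesion protein facing the axon (log2 difference 0.66, adjusted p = 0.087), Ugt8a, the enzyme that makes galactosylceramide (0.73, 0.087), Sox10, the transcription factor of the lineage (0.52, 0.10), Gsn (0.77, 0.14) and Mbp, myelin basic protein (0.38, 0.14). A second probe set of Mag gave -0.09. The list did not move as a block, since Anln (-0.14), Septin4 (-0.11), Car2 (-0.07) and Apod (-0.03) had differences close to 0. Mobp had signals of 3651 and 3968 in WT against 6702 and 6494 in S1/2-/- mice at ZT4, while at ZT16 the ranges met, with 5254 and 4869 against 4971 and 5694.

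The myelin signals also differed among the WT mice, and markers of another tissue differed with them. Summed over the 18 genes, the myelin signal was 30733 and 34211 in WT at ZT4, 40485 and 41004 in WT at ZT16, and 42278 to 46029 in the 4 S1/2-/- mice. The striatum lies directly under the cortical white matter, and the summed signal of 9 striatal genes, among them Penk, Tac1 and Drd2, was 10146 and 10216 in WT at ZT4 and 14361 to 23481 in the other 6 mice. With the striatal score as a further covariate, Cldn11 was called (log2 difference 0.94, adjusted p = 0.013) and the calls of Mal (0.61, 0.062) and Mog (0.74, 0.16) were lost. At ZT16 alone, where striatal markers were not lower in WT mice (18378 and 23478, against 14361 and 20211 in S1/2-/- mice), the differences were 0.90 for Cldn11, 0.48 for Mal and 0.68 for Mog. These genes were called in a fit that includes the ZT16 arrays, so their values at ZT16 are no separate check. The median of the whole myelin list was 0.12 at ZT16. With the striatal score as a covariate it was 0.26 over both times, beside 0.35 without. The part of the striatal signal in the myelin result was not tested beyond these values.

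**Figure D2:**
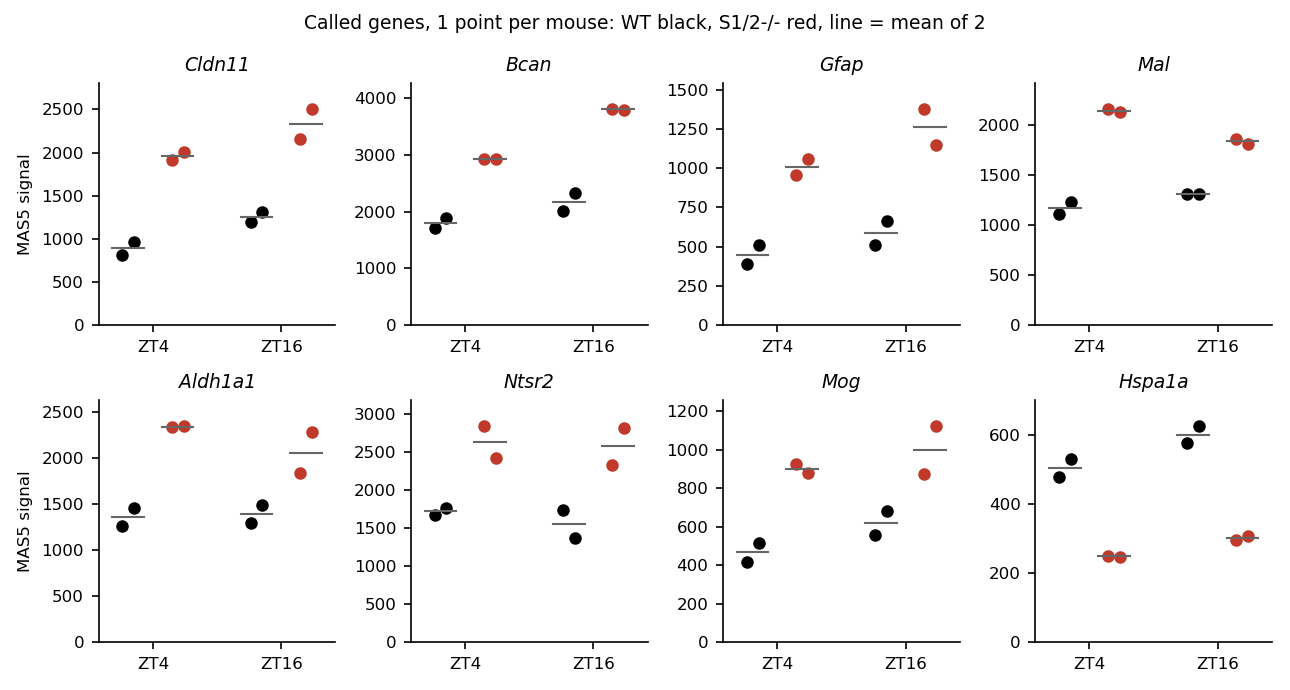
MAS5 signal of the 8 called genes with a symbol, 1 point per mouse, with WT in black, S1/2-/- in red and a line at the mean of 2 mice. At ZT4 and at ZT16 the genotypes do not overlap in any panel, and Hspa1a is the only panel with S1/2-/- below WT.

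Among astrocyte genes Gfap and Ntsr2 rose. Gfap, the intermediate filament of astrocytes, gave 388 and 508 in WT against 958 and 1057 in S1/2-/- mice at ZT4, and 510 and 667 against 1378 and 1150 at ZT16. It rose 2.21-fold (log2 difference 1.15, SE 0.13, adjusted p = 0.0070), the largest fold among the called genes. A second probe set of Gfap with dimmer signals gave 172 to 221 in the 4 WT mice and 256 to 346 in the 4 S1/2-/- mice (log2 difference 0.65, SE 0.17, adjusted p = 0.20), so the genotypes were apart in both probe sets and the size differed. Ntsr2, the low-affinity neurotensin receptor, which is found in astrocytes, gave 1678 and 1771 in WT against 2841 and 2427 in S1/2-/- mice at ZT4, and 1742 and 1367 against 2332 and 2822 at ZT16. It rose 1.59-fold (log2 difference 0.67, SE 0.10, adjusted p = 0.040). Aldh1a1, which is on no list used here, gave 1266 and 1459 in WT against 2333 and 2346 in S1/2-/- mice at ZT4, and 1295 and 1488 against 1841 and 2280 at ZT16. Its rise was 1.59-fold (log2 difference 0.67, SE 0.10, adjusted p = 0.038).

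At the same unadjusted threshold, 12 of 25 tested astrocyte markers were higher and 0 lower (background 6.15% and 5.74%). Of the 25, 6 were separated higher at both times and 0 lower (background 5.62% and 6.45%). The median log2 difference of the list was 0.21, with 0.18 at ZT4 and 0.13 at ZT16. Slc1a2, the main glutamate transporter, had a log2 difference of 0.70 (adjusted p = 0.22), and the water channel Aqp4 had 0.65 (adjusted p = 0.22). The count of 12 went to 7 without WT ZT4 replicate 2, WT ZT16 replicate 1 or S1/2-/- ZT4 replicate 1, each left out alone, and to 5 higher and 1 lower with each array centred on its median. Several of the most abundant astrocyte transcripts showed differences near 0: Apoe -0.02, Sparcl1 -0.03 and Aldoc -0.06. Glul, glutamine synthetase, had -0.21. The mean log2 signal of the 25 genes was 10.66 to 10.77 in WT and 10.91 to 11.05 in S1/2-/- mice, without overlap. Their summed signal, which the most abundant transcripts dominate, was 101150 to 113210 in WT and 106100 to 114790 in S1/2-/- mice, and these ranges overlap. With the striatal score as a covariate, Gfap was called (1.11, adjusted p = 0.032), Ntsr2 (0.72, 0.062) and Aldh1a1 (0.60, 0.092) were not.

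Bcan encodes brevican, a proteoglycan of the perineuronal matrix that is made largely by glia. Its signals were 1706 and 1883 in WT against 2938 and 2930 in S1/2-/- mice at ZT4, and 2011 and 2332 against 3814 and 3796 at ZT16. It rose 1.70-fold (log2 difference 0.76, SE 0.08, adjusted p = 0.0029), and the S1/2-/- mice of each time were almost level with each other. A second, dim probe set of Bcan gave 48.2 to 136 in WT and 127 to 283 in S1/2-/- mice (log2 difference 1.40, SE 0.29, adjusted p = 0.10). Its mean log2 signal was 6.26 in WT, under the filter of 6.79, and 7.66 in S1/2-/- mice. That probe set passed the filter only through the higher group, so it is no separate support for Bcan. Of 15 tested genes of the brain extracellular matrix, Bcan was the only one at an unadjusted p under 0.05 in either direction, and the list had a median of 0.17, or 0.09 without S1/2-/- ZT16 replicate 1. Spock2, another matrix proteoglycan, gave 5844 and 7532 in S1/2-/- against 6580 and 6846 in WT mice at ZT4, and 9850 and 9135 against 6916 and 7476 at ZT16 (log2 difference 0.19, adjusted p = 0.49).

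Among the 8 called genes, those for which single arrays mattered least were Cldn11, Bcan, Gfap and Hspa1a. Each of them was called in all 8 fits that left out 1 array, with log2 differences of 0.95 to 1.09, 0.71 to 0.80, 1.06 to 1.23 and -1.03 to -0.97. Mal, Aldh1a1, Ntsr2 and Mog were each called in 2 of these 8 fits, with the highest adjusted p between 0.14 and 0.18 and log2 differences of 0.59 to 0.92. Mal and Ntsr2 stayed called only without WT ZT16 replicate 1 or 2, and Aldh1a1 and Mog only without WT ZT16 replicate 2 or S1/2-/- ZT16 replicate 1. The 2 called probe sets that have no gene symbol in the annotation used here, 92802_s_at (log2 difference 0.75, adjusted p = 0.021) and 161563_r_at (0.74, 0.043), were called in 4 and 1 of the 8 fits. In the first, the S1/2-/- mice gave 13948 to 14139 and the WT mice 6761 to 10162.

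Chaperones of the heat shock family bind unfolded proteins, and the HSP70 encoded by Hspa1a is a form that cells make on stress. Hspa1a gave 477 and 530 in WT against 250 and 248 in S1/2-/- mice at ZT4, and 577 and 625 against 296 and 308 at ZT16. It fell to 0.499 of the WT level (log2 difference -1.0, SE 0.12, adjusted p = 0.0072), by -1.01 at ZT4 and -0.99 at ZT16. Hspa1b, its neighbour on chromosome 17 with a nearly identical coding sequence, gave 326 and 367 in WT against 170 and 195 in S1/2-/- mice at ZT4, and 494 and 721 against 632 and 265 at ZT16. Its genotypes overlapped at ZT16 (log2 difference -0.74, SE 0.25, adjusted p = 0.29), and probes of such a pair may bind both transcripts, so the split of the signal between the genes is uncertain. Of 29 tested heat shock genes, 4 were separated lower (background 6.45%), and the list median was -0.09. By unadjusted p, 0 of the 29 were higher and 5 lower (background 6.15% and 5.74%). Without S1/2-/- ZT4 replicate 2, or without S1/2-/- ZT16 replicate 1, 3 were lower. Besides the HSP70 genes, the 5 were the co-chaperone Dnajb4 (-0.31, adjusted p = 0.30) and the chaperonin subunits Cct4 (-0.28, 0.33) and Cct2 (-0.31, 0.37). Chaperones of the endoplasmic reticulum had 1 higher and 1 lower gene of 25 and a median of 0.06.

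Promoters were read from RefSeq (GRCm38.p6), from 250 bases before to 50 bases after each start, to ask how often the called genes carry the E-box CACGTG or the heat shock element in its short form GAANNTTC. Both motifs read the same on either strand, and a match of one can share no more than an end base with a match of the other. All 8 called genes with a symbol had a promoter in the table. The E-box was in 1 of the 8, that of Ntsr2, beside 13.0% of the 4601 tested genes with a promoter and 8.09% of all 27025 genes of the table. The heat shock element was likewise in 1 of the 8, that of Hspa1a, beside 6.96% of tested genes and 9.04% of all. Of genes separated at both times, 10.9% of 294 higher and 8.57% of 350 lower ones carried the E-box. These shares lie below that of all tested genes. The 2 promoters with a match are shown 5′ to 3′ with the match in capitals, at chr12:16653220-16653519 on the plus strand for Ntsr2, where it starts 152 bases before the transcription start, and at chr17:34972107-34972406 on the minus strand for Hspa1a, 104 bases before it.
Ntsr2: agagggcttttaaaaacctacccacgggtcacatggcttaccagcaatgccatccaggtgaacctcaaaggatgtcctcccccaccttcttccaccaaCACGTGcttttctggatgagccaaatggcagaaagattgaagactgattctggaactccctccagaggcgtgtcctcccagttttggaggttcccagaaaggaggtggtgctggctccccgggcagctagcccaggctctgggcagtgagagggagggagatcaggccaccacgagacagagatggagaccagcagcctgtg
Hspa1a: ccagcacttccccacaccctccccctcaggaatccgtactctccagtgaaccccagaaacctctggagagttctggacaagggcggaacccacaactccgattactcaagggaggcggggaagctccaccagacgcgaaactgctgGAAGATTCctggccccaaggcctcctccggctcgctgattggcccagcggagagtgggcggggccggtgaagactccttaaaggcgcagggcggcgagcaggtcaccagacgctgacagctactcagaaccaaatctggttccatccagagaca
A match describes letters and not binding, and the window leaves out distal elements.

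**Figure D3:**
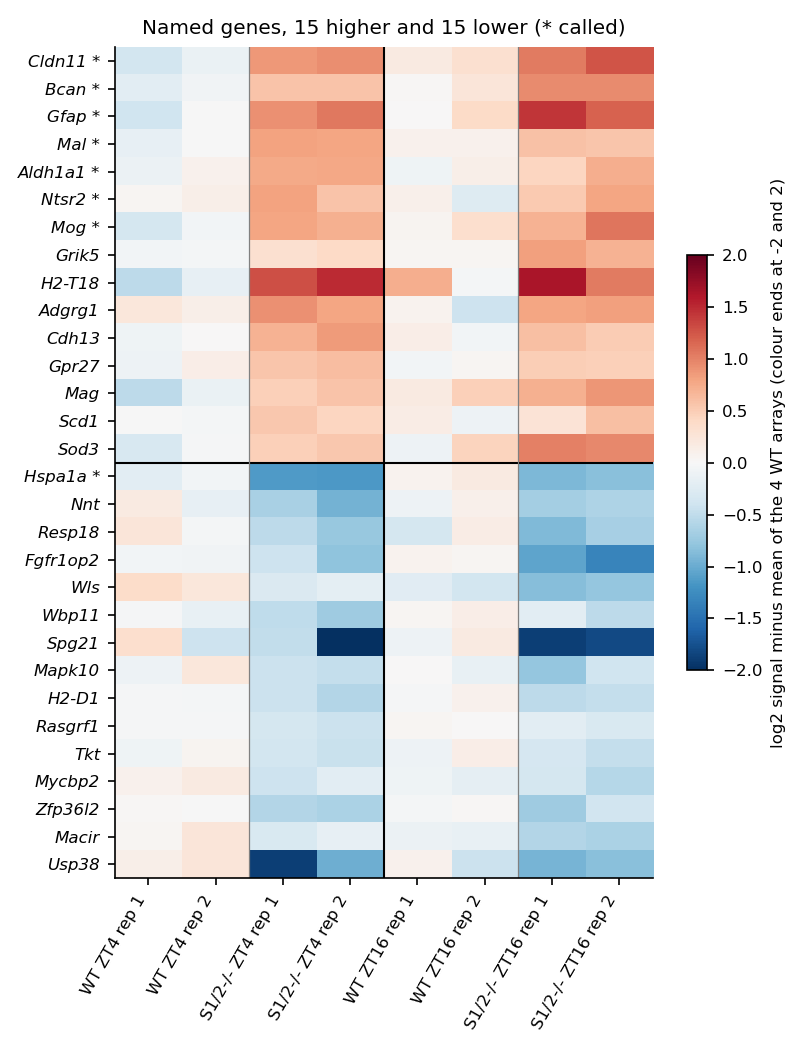
Log2 signal of 30 named genes in each of the 8 mice minus the mean of the 4 WT mice, with red for higher and blue for lower and the colour scale ending at -2 and 2. The columns are 2 WT and 2 S1/2-/- mice at ZT4 and then at ZT16, the upper 15 genes are higher and the lower 15 are lower in S1/2-/- mice, and called genes carry an asterisk.

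Beyond the called genes, the rule for naming took the separated genes with the lowest p in each direction. Grik5, a kainate receptor subunit, gave 1397 and 1404 in WT against 1806 and 1909 in S1/2-/- mice at ZT4, and 1492 and 1490 against 2561 and 2350 at ZT16. Its adjusted p passed (0.040) and its fold of 1.48 fell short of the threshold. A second, dimmer probe set of Grik5 had 0.14 over both times, 0.51 at ZT4 and -0.22 at ZT16, and its genotypes overlapped. Adgrg1, an adhesion receptor of neural progenitors and oligodendrocyte precursors, had a log2 difference of 0.82 (SE 0.14, adjusted p = 0.052). Cdh13, a cadherin of cortical neurons, had 0.66 (SE 0.11, adjusted p = 0.052). Scd1, a fatty acid desaturase, had 0.46 and 0.51 in its 2 brighter probe sets, which were separated. The dimmest probe set of Scd1 also gave 0.51, but its genotypes overlapped. Its mean log2 signal was 6.765 in WT, under the filter of 6.79, and 7.28 in S1/2-/- mice. That probe set passed the filter only through the higher group, so it is no separate support for Scd1. Gpr27, an orphan receptor, had 0.53 (SE 0.10, adjusted p = 0.075).

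Among genes with lower signals, Resp18, a protein of secretory granules, gave 2207 and 1810 in WT against 1301 and 1095 in S1/2-/- mice at ZT4, and 1460 and 2055 against 1008 and 1178 at ZT16 (log2 difference -0.71, SE 0.12, adjusted p = 0.071). Wls, a carrier that brings WNT proteins to the cell surface, had -0.53 (SE 0.10, adjusted p = 0.087). Tkt, transketolase of the pentose phosphate pathway, had -0.41 (SE 0.08, adjusted p = 0.10), and Rasgrf1, an exchange factor that couples calcium to RAS, had -0.33 (SE 0.06, adjusted p = 0.088) with signals of 3182 to 3325 in WT and 2414 to 2787 in S1/2-/- mice. For several of the others a second probe set of the same gene told a different story. Mapk10 had -0.52 in 1 probe set and -0.08 in the other, Zfp36l2 -0.58 and -0.15, and Usp38 -1.16 and -0.27. Spg21 had the lowest difference of all tested probe sets (-1.55, SE 0.30, adjusted p = 0.087), in a probe set whose suffix marks probes shared by a family of sequences, with 591 to 998 in WT and 194 to 561 in S1/2-/- mice. Further named genes were Wbp11 (-0.49), Mycbp2 (-0.38) and Macir (-0.42).

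MHC class I molecules display peptides to T cells, and in neurons some of them shape synapses. The nonclassical gene H2-T18 gave 193 and 247 in WT against 679 and 781 in S1/2-/- mice at ZT4, and 457 and 268 against 854 and 565 at ZT16 (log2 difference 1.36, SE 0.22, adjusted p = 0.052). All S1/2-/- mice were above all WT mice. H2-M3 had -0.54 (adjusted p = 0.28) and the common light chain B2m -0.23 (adjusted p = 0.31), both separated lower, and 8 of the 10 tested genes of the list were below 0, with a median of -0.18 (-0.10 without WT ZT16 replicate 1). H2-D1 had -0.51 (SE 0.10, adjusted p = 0.087) in 1 probe set and -0.02 in a brighter one. Class I genes are close copies of each other, and the probe sets of H2-T18 and H2-D1 carry the suffix for shared probes, so which members gave these signals is uncertain. The called genes Hspa1a and Mog lie in the stretch of chromosome 17 from H2-K1 to Mog. Of its 56 tested genes, 4 were higher and 5 lower by unadjusted p (background 6.15% and 5.74%). Among the other 242 tested genes of the chromosome, 14 were higher and 21 lower, and 0 were called. H2-T18 was counted among these 242 and not among the 56. The stretch ends at a called gene, and whether linked DNA had a part was not tested.

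NNT passes reducing power from NADH to NADPH in mitochondria, and SOD3 removes superoxide outside cells. Nnt gave 989 and 777 in WT against 555 and 454 in S1/2-/- mice at ZT4, and 813 and 934 against 546 and 572 at ZT16. The genotypes did not overlap, and the log2 difference was -0.72 (SE 0.12, adjusted p = 0.052). Sod3 gave 308 and 380 in WT against 537 and 564 in S1/2-/- mice at ZT4, and 362 and 528 against 775 and 751 at ZT16 (log2 difference 0.74, SE 0.14, adjusted p = 0.087). The 36 tested antioxidant and NADPH enzymes as a list had 3 higher and 3 lower genes by unadjusted p (background 6.15% and 5.74%) and a median of -0.03. Gstp1 (-0.31, adjusted p = 0.25) and Idh2 (0.42, 0.27) stood next in order of the test statistic.

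Of 17 glutamate and GABA receptor genes, 5 were higher and 1 lower by unadjusted p (background 6.15% and 5.74%). The same counts were separated at both times (background 5.62% and 6.45%), and the median was 0.27. Besides Grik5 these were led by Gabra2 (0.41, adjusted p = 0.25) and the AMPA receptor subunit Gria1 (0.39, adjusted p = 0.29), whose genotypes met at ZT16, with 1078 and 817 in WT against 1073 and 1061 in S1/2-/- mice. Grin2b had 1.11 (SE 0.44, adjusted p = 0.35), a value that leaned on 1 WT mouse with a signal of 32 beside 161 to 165 in the other 3. Its mean log2 signal was 6.76 in WT, under the filter of 6.79, and 7.87 in S1/2-/- mice. Grin2b thus passed the filter only through the higher group, and its place among the 5 higher and separated genes is no support for the list. Gabrb1 was the separated member with lower signals (-0.19, adjusted p = 0.36). Leaving out WT ZT16 replicate 2 lowered the list median to 0.12, and leaving out replicate 1 of that group gave 0.37. The count of 5 went to 3 without S1/2-/- ZT16 replicate 1 and to 8 without S1/2-/- ZT4 replicate 1.

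Housekeeping machinery leaned the other way by small amounts, with 0 calls in any of these lists. The background shares were 6.15% higher and 5.74% lower by unadjusted p, and 5.62% separated higher and 6.45% lower. Ribosomal proteins had 0 higher and 11 lower genes of 26 by unadjusted p (threshold 0.05), 7 separated lower and a median of -0.16 (-0.10 without WT ZT16 replicate 2). Rps4x (-0.26, adjusted p = 0.24), Rps24 (-0.19, 0.25) and Rpl8 (-0.23, 0.26) led them. For the proteasome, which degrades tagged proteins, 0 of 40 were higher and 8 lower, 1 was separated higher and 8 lower, and the median was -0.10. Psmd14 (-0.31, 0.24) and Psme1 (-0.43, 0.25) came first there. For oxidative phosphorylation, 2 of 66 were higher and 9 lower, 0 were separated higher and 13 lower, and the median was -0.08. Uqcr10 and Uqcrc2 of complex III (-0.31, adjusted p = 0.16, and -0.28, 0.21) and Ndufv2 of complex I (-0.24, 0.17) led that list. Centring each array on its median moved the median of all tested probe sets from 0.00 to -0.07, and the 3 list medians then were -0.23, -0.17 and -0.15. With quantile normalization the median of all tested probe sets was -0.01, and the 3 list medians were -0.12, -0.09 and -0.06. The part of array scaling in these small differences was not tested beyond these values. The lower counts of 11, 8 and 9 depended on single arrays, and without S1/2-/- ZT16 replicate 1 they were 5, 4 and 4. Under none of the 12 settings did the sign of these medians turn.

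**Figure D4:**
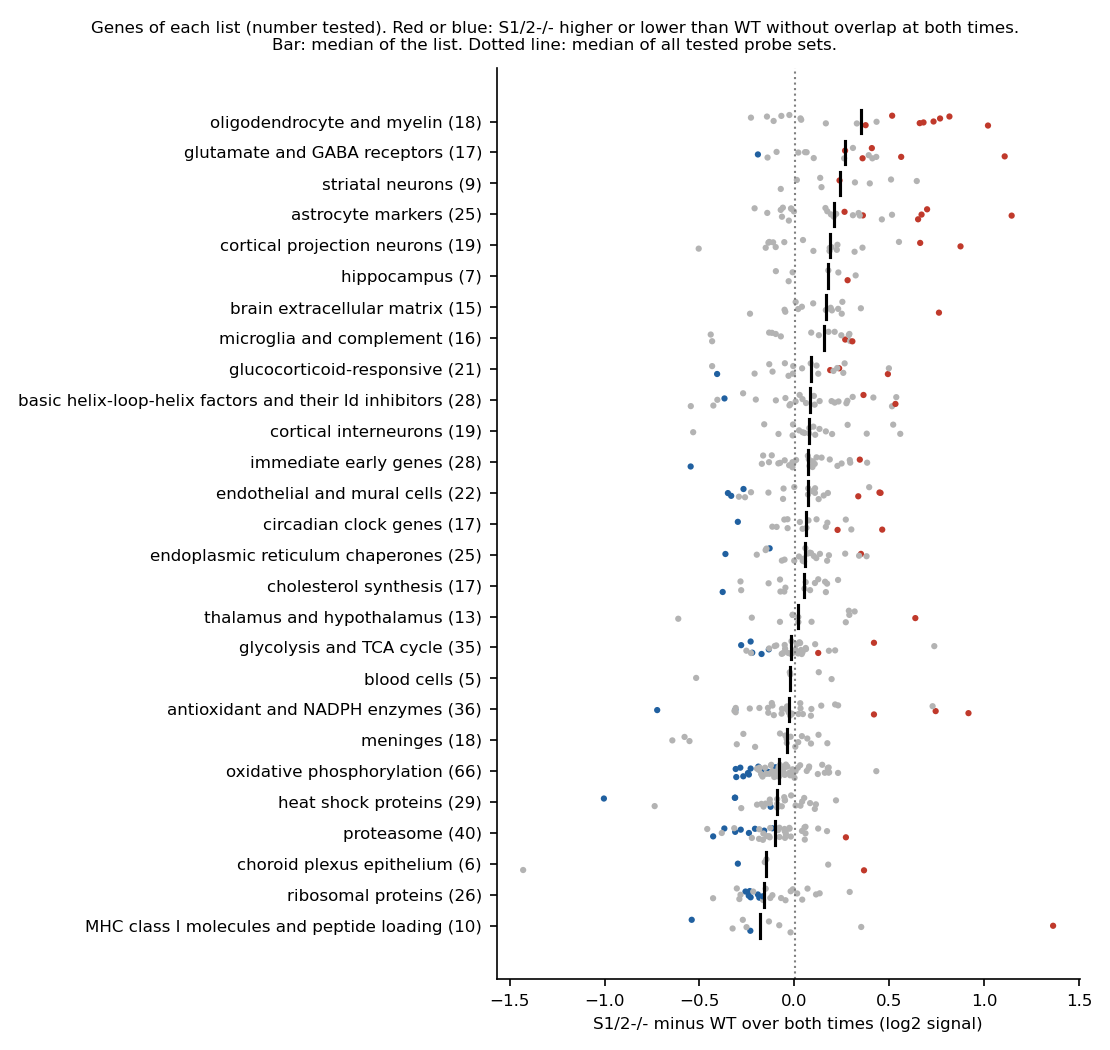
Difference between S1/2-/- and WT cortex over both times in log2 signal (horizontal axis) for every tested gene of 27 lists, with the number tested in brackets. Red and blue points are genes in which S1/2-/- mice lay above or below WT without overlap at both times, bars are list medians, and the dotted line is the median over all probe sets, 0.00. The myelin list has a median of 0.35 and the MHC class I list one of -0.18, with H2-T18 far to the right of it.

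The clock genes, the best known targets of SHARP1 and SHARP2, had 2 higher and 1 lower gene of 17 by unadjusted p (background 6.15% and 5.74%). Their median was 0.06, with -0.02 at ZT4 and 0.11 at ZT16, and it turned to -0.00 with median centring. At ZT16 the mean log2 signal of the 17 genes was 9.19 and 9.08 in WT against 9.36 and 9.26 in S1/2-/- mice. Per1 (0.12), Per2 (-0.04), Cry1 (-0.12), Dbp (0.03), Arntl (-0.05) and Nr1d1 (-0.04) had differences no larger than their standard errors, which were 0.13 to 0.21. The largest statistics were those of Bhlhe40 itself (-0.30, SE 0.09, adjusted p = 0.28), the kinase Csnk1d (0.23, adjusted p = 0.36) and Timeless (0.46, adjusted p = 0.36). Bhlhe40 gave 1074 and 983 in WT against 913 and 834 in S1/2-/- mice at ZT4, and 1188 and 1285 against 1043 and 889 at ZT16, separated at both times by a small margin. These values do not check the labels, because the position of its probes relative to the targeted part of Bhlhe40 was not stated. Bhlhe41 was not analysed here. Of 28 tested basic helix-loop-helix factors and their Id inhibitors, 4 were higher and 3 lower, among them Id2 (-0.37, adjusted p = 0.17), Id4 (0.51, 0.21), Usf1, an E-box activator (0.53, 0.25), and Tcf12 (-0.43, 0.25). Immediate early genes, the first that active neurons switch on, had 1 higher (Nptx2, 0.35) and 1 lower (Ier3, -0.55) of 28 and a median of 0.07, with 0.23 at ZT4 and -0.07 at ZT16. Glucocorticoid-responsive genes had 2 higher and 1 lower of 21 (median 0.09), cholesterol synthesis 0 and 2 of 17 (0.05), and glycolysis and the TCA cycle 1 and 5 of 35 (-0.02).

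Markers of cortical neurons were present in every mouse, with signals of 5667 to 8634 for Tbr1 and 3614 to 6633 for Nrgn. The counts below are by unadjusted p under 0.05, where the background shares were 6.15% higher and 5.74% lower. Projection neuron markers had 3 higher and 0 lower of 19 and a median of 0.19 (0.09 without WT ZT16 replicate 2), led by Cdh13 and by Cux2 of the upper layers (0.88, SE 0.21, adjusted p = 0.16, signals of 114 to 200 in WT and 220 to 355 in S1/2-/- mice). Interneuron markers had 0 and 0 of 19 and a median of 0.08. Microglial and complement genes had 4 higher and 0 lower of 16, led by Laptm5 (0.27, adjusted p = 0.30). That count of 4 went to 1 without WT ZT4 replicate 1 or S1/2-/- ZT4 replicate 2, and to 0 with each array centred on its median. The microglial median of 0.15 went to 0.25 without WT ZT16 replicate 2 and to 0.08 without replicate 1. Endothelial and mural genes had 3 and 1 of 22, led by Itm2a (0.34, adjusted p = 0.16). Hippocampal markers had 0 and 0 of 7 and a median of 0.18 (0.00 without WT ZT16 replicate 1). The mean log2 signal of the 7 was 8.45 to 8.55 in WT and 8.56 to 8.63 in S1/2-/- mice, apart by a narrow margin. Their summed signal was 4389 to 4753 in WT and 4596 to 4898 in S1/2-/- mice, and these ranges overlap. Thalamic and hypothalamic markers had 1 and 0 of 13 and a median of 0.02.

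Markers of tissue next to the cortex differed from array to array. Ttr, the defining transcript of the choroid plexus, gave 83.2 and 331 in WT against 1456 and 146 in S1/2-/- mice at ZT4, and 2582 and 2412 against 102 and 150 at ZT16. It was high in both WT mice of ZT16 and in 1 S1/2-/- mouse of ZT4, so over both times the genotypes overlapped widely (log2 difference -1.43, SE 1.07). The 6 tested choroid plexus genes summed to 2941 to 6067 in WT and 3188 to 5147 in S1/2-/- mice, with 1 higher (Igfbp2, 0.37) and 1 lower (Cab39l, -0.30) at an unadjusted p under 0.05. The background shares at this threshold, also for the lists that follow, were 6.15% higher and 5.74% lower. Penk, a peptide of striatal neurons, gave 3280 and 3601 in WT against 7651 and 11608 in S1/2-/- mice at ZT4, and 8476 and 12383 against 5828 and 9833 at ZT16. The striatal list had a median of 0.72 at ZT4 and -0.25 at ZT16, 2 higher and 0 lower genes of 9 over both times, and no sum that set the genotypes apart at ZT16. Meningeal genes (0 and 2 of 18, median -0.04) and the 5 blood cell genes (0 and 0, median -0.02) summed to overlapping ranges, 22985 to 26908 against 21641 to 25257 and 3920 to 8221 against 3814 to 8811. With the choroid plexus score as a covariate, 19 probe sets were called, 9 of the 10 among them, and with the striatal score 6 were called, 5 of the 10 among them.

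How far the genotype difference at one time recurred at the other could be read directly, because the 2 times share no array. Of 147 probe sets picked as higher at ZT4 alone (unadjusted p under 0.05 and over 1.5-fold), 63.9% were above 0 at ZT16, where 50.8% of all tested probe sets were, and their median went from 0.85 to 0.23. Of 86 picked as lower at ZT4, 64.0% were below 0 at ZT16, where 49.2% of all were, with medians of -0.79 and -0.16. In the other direction, 69.2% of 211 picked as higher at ZT16 were above 0 at ZT4 (49.3% of all), and 56.2% of 96 picked as lower were below 0 (50.7% of all). Over all tested probe sets 57.3% had the same sign at both times. A test of the interaction between genotype and time found 0 probe sets at an adjusted p under 0.05 in limma, the smallest adjusted p being 0.295, and 424 at an unadjusted p under 0.05. Among the named genes, Fgfr1op2 had a larger difference at ZT16 (-1.25) than at ZT4 (-0.55), with an unadjusted p of the interaction of 0.0217 that did not pass after adjustment.

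Both targeted genes lie on chromosome 6, and the 25 nearest tested genes on each side of each were compared with the rest, using the gene order of GRCm38.p6. Bhlhe41 lies near the end of the chromosome, so it had 34 such genes and Bhlhe40 had 50. Around Bhlhe40, 2 genes were separated higher and 3 lower, with a median log2 difference of 0.05. Around Bhlhe41, 4 were separated higher and 4 lower (median -0.00), and limma called 0 genes at either locus. Of the 84 genes near either locus, 7 were higher and 8 lower by unadjusted p, and 6 were separated higher and 7 lower. Among the other 222 tested genes of chromosome 6, 12 were separated higher and 13 lower, and 12 were higher and 11 lower by unadjusted p. Over all tested probe sets, 6.15% were higher and 5.74% lower by unadjusted p, and 5.62% were separated higher and 6.45% lower. Fgfr1op2, the third tested gene on one side, gave 737 and 731 in WT against 575 and 435 in S1/2-/- mice at ZT4, and 801 and 787 against 369 and 304 at ZT16 (log2 difference -0.90, SE 0.16, adjusted p = 0.075). Sspn, the nearest tested gene on that side, had 0.55 (SE 0.18, adjusted p = 0.29), and Sinhcaf, the ninth, had 0.60 (SE 0.24, adjusted p = 0.35). On the other side Etnk1 had -0.12, Ldhb -0.28, Wbp11 -0.49 and Grin2b 1.11. Of these, Grin2b passed the filter on low signals only through the S1/2-/- group. Near Bhlhe40, Gpr27 and Foxp1 (0.24) were separated higher and Cntn4 (-0.69), Xpc (-0.58) and Tpra1 (-0.20) lower. Xpc passed the filter of 6.79 only through the WT group, with a mean log2 signal of 7.17 in WT and 6.59 in S1/2-/- mice. Whether DNA linked to the targeted alleles had a part in these values was not tested.

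**Figure D5:**
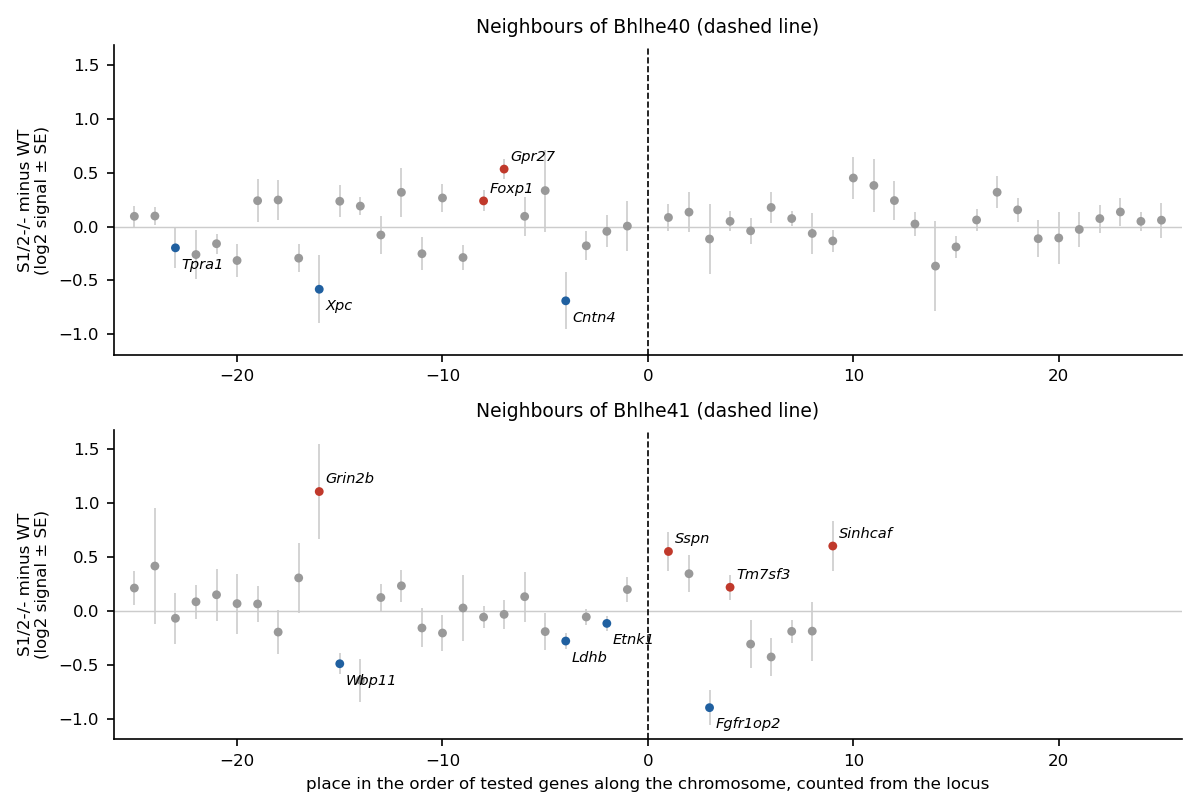
Difference between S1/2-/- and WT cortex over both times in log2 signal, with SE, for the tested genes nearest to Bhlhe40 (upper panel, 50 genes) and Bhlhe41 (lower panel, 34 genes), in their order along chromosome 6 counted from the targeted gene at 0. Red and blue points are genes separated higher or lower at both times. Fgfr1op2 at place 3 of the lower panel is the lowest point, at -0.90.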

How the data were processed

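RNA of 8 mice was hybridized to 1 Affymetrix array each. The labels give Trizol extraction and the methods RNeasy columns. The authors deposited 1 linear MAS5 intensity per probe set, scaled to a trimmed mean of 500 per array (2% off each end), with the MAS5 version not given in the sources used here. Of 12488 probe sets, 66 controls were left out. Of the other 12422, 10833 had 1 gene symbol in the platform annotation, 396 several and 1193 none. The 64 signals under 1 entered as 1 before log2 transformation. Tested were those at or above the 40th percentile of mean log2 signal (6.79). For 936 genes with several tested probe sets, lists used the brightest. limma 3.58.1 in R 4.3.3 fitted genotype with time as an additive covariate and an intensity trend (5 residual and 5.77 prior degrees of freedom), with Benjamini-Hochberg adjustment over the 7453 tested probe sets. Thresholds follow the methods. All adjusted p-values, and the interaction from 4 group means, are from limma. Steps were tested on simulated data. Named genes were the called ones, the separated genes with the lowest p up to 15 per direction, clock genes, and the leading members of each list. Members and lists were chosen with earlier results of these data known. Alternatives were other filters, scalings, low-signal handling, designs, covariates, thresholds, each time alone, a replicate block and each array left out.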

Additional observations from a re-analysis of the deposited data

Results flagged for a closer look

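In 4 genes the array farthest out in its genotype lay far from the other 3 mice, relative to the range of the 4. Aldh1a1 gave 1841 in S1/2-/- ZT16 replicate 1, below the other S1/2-/- mice. Spg21 gave 561 in S1/2-/- ZT4 replicate 1, above the other S1/2-/- mice. H2-D1 gave 757 in WT ZT16 replicate 2, above the other WT mice. Usp38 gave 95.2 in S1/2-/- ZT4 replicate 1, below the other S1/2-/- mice. In all 66 groups of 4 arrays (33 probe sets, 2 genotypes) were looked at, and chance marks about 1 in 20, which is 3.3 here.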

How the results depend on the processing

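All 33 named probe sets kept their direction in all 725 pairs of probe set and alternative. The call stayed as it was in 619, was made only under the alternative in 27 and was lost in 79. The count of 10 calls (9 higher, 1 lower) was 16 (12 and 4) with a filter at the 60th percentile, 19 (16 and 3) with 4 group means, 19 (15 and 4) with the choroid plexus score, 6 (5 and 1) with the striatal score, 5 (4 and 1) with median centring, 173 (133 and 40) with unadjusted p, and 1 (Hspa1a) without the intensity trend. At ZT16 alone 1 probe set was called and none of the 10, and at ZT4 alone 13 were called, 5 of the 10 among them. Leaving out 1 array gave 5 to 14 calls: 5 without WT ZT4 replicate 1 or 2, S1/2-/- ZT4 replicate 2 or S1/2-/- ZT16 replicate 2, 6 without S1/2-/- ZT4 replicate 1 or S1/2-/- ZT16 replicate 1, and 14 and 11 without WT ZT16 replicate 1 and 2. The other alternatives gave 7 to 12 calls. The 900 separated probe sets (419 higher, 481 lower) were 965 (249 and 716) after median centring and 1274 to 1529 with 1 array left out, where 1 mouse fewer has to lie on its side. The median of the lists for antioxidant enzymes, blood, cholesterol synthesis, clock, endothelium, endoplasmic reticulum chaperones, glycolysis, meninges and thalamus changed sign in at least 1 of 12 settings. Replicate numbers did not pair the mice: deviations of same-numbered arrays correlated at -0.00 to 0.10, and the replicate block gave 7 calls. The causes of these shifts were not tested. Dim signals limit what could be tested, and 4969 probe sets lay under the filter.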

Other observations

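Without the filter on low signals, 8 probe sets were called, 6 of the 10 among them. Ccr6, a chemokine receptor of lymphocytes, was 1 of the others. It gave 32.6 and 43.1 in WT against 228 and 171 in S1/2-/- mice at ZT4, and 30.1 and 50.045 against 264 and 259 at ZT16 (log2 difference 2.57, SE 0.31, adjusted p = 0.019 from limma without the filter). No S1/2-/- mouse came within the WT range. The other, 99868_at, has no symbol in the annotation used here and gave 26.9 to 48.2 in S1/2-/- mice, while its WT signals lay under the 10th percentile of every array (15.2 to 17.4), so no size of the difference is given. These genes were chosen after their values were seen, and the WT signals lie far under the lower limit of the tested range.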
